A study of Mus musculus with 2 samples.

Results

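Type I interferon stimulated genes are described here as a fixed list of 37 symbols, taken by name and without use of the measured values. Of these, 35 were among the 32245 symbols in the deposited files. Mx1 and Mx2 were not among the listed symbols and are not analysed here. The data were 2 droplet single-cell RNA libraries of mouse immune cells, made from tumours of the label "allogroft tumour" that the series design places under the skin and calls KP. Tumours were taken 14 days after inoculation and dissociated. After a Percoll gradient, live cells were sorted on CD45, which leukocytes carry on their surface. One library has the genotype label WT (Tdg_WT) and the other Tdg KO (Tdg_KO). Neither label gives a treatment other than the sort. The enzyme made from Tdg, thymine DNA glycosylase, takes part in base excision repair. Whether tumour cells, host cells or both carried the knockout, and how many tumours went into a library, is not given in the sources used here.

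After filtering, 5504 cells remained in Tdg_WT and 5693 in Tdg_KO, with a median of 5378 and 6419 UMIs, tags that let every captured RNA molecule be counted 1 time. Tdg itself had a level of 25.1 (23.5 to 26.7) in Tdg_WT against 26.5 (25.1 to 27.9) in Tdg_KO, in CPM, the usual scaling of a gene's UMIs to the total of its group. The captured 3′ end may lie outside a deletion, so this level does not check the label, and Tdg_KO means the library labelled so throughout. With 1 library a group there is no replicate check and no test between groups. Intervals are 95% and cover counting error only. Cells were put in 17 classes named from marker genes, with the members and their pathway genes kept out of the clustering. In the 16 immune classes each of the markers was detected in at least 10% of cells, in both libraries, and in the keratin-led class 4 and 3 of 5 were. Barcodes with markers of a second lineage were 7.58% of kept cells in Tdg_WT and 13.2% in Tdg_KO. Just 8 barcode sequences occurred in both libraries.

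Type I interferons, the interferon alphas and interferon beta, bind the receptor of Ifnar1 and Ifnar2 on almost every cell. The kinases Jak1 and Tyk2 then activate a complex that holds Stat2 and Irf9 and binds a short promoter element, the interferon-stimulated response element (ISRE). The genes behind that element detect foreign nucleic acid, block translation or replication of viral RNA and feed back on the signal. In tumours, interferon signalling in dendritic cells is known to aid the priming of T cells.

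The promoters of 6 members are shown because the element that defines the pathway can be read in them. They are the 250 bases before the transcription start, from RefSeq on GRCm38.p6, printed 5′ to 3′ on the gene's strand. Capitals mark matches to GAAA, any 2 bases and GAAA again, on either strand. Isg15 is at chr4:156200819-156201068 (minus), Ifit1 at chr19:34640639-34640888 (plus), Ifit3 at chr19:34583279-34583528 (plus), Ifit3b at chr19:34607707-34607956 (plus), Rsad2 at chr12:26456453-26456702 (minus) and Bst2 at chr8:71537473-71537722 (minus).
Isg15: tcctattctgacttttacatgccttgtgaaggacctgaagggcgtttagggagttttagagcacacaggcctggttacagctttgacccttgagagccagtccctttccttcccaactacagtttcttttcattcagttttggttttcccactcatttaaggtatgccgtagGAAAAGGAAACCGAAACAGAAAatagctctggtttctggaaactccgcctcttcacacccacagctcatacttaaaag
Ifit1: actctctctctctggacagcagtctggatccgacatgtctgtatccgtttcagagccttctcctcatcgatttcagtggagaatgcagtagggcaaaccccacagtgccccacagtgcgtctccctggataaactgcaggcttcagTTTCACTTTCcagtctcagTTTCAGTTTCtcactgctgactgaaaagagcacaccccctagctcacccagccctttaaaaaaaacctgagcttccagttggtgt
Ifit3: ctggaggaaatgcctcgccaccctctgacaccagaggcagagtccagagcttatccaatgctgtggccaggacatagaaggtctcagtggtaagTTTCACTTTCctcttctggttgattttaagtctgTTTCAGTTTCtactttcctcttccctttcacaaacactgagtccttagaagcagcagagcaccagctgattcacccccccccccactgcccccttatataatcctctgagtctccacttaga
Ifit3b: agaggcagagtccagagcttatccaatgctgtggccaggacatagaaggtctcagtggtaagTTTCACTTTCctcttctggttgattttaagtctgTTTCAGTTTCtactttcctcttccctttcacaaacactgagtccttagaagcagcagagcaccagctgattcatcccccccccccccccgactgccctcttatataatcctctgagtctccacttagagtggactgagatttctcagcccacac
Rsad2: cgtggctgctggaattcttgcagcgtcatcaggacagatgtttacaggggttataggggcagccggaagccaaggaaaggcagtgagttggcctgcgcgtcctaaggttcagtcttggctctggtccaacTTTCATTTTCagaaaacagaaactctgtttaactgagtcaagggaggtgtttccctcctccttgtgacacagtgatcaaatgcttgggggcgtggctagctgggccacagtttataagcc
Bst2: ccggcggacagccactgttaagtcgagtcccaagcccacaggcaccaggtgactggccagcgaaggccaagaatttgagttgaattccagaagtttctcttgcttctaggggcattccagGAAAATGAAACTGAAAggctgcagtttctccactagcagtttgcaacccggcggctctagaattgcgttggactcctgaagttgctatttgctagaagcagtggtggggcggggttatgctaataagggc
In Isg15 there were 3 overlapping matches, which began 78, 72 and 66 bases before the start. Ifit1 held matches at 104 and 85 bases, Ifit3 at 156 and 122, Ifit3b at 188 and 154, and Rsad2 at 120. Bst2 had a pair of overlapping matches at 130 and 124 bases. The Ifit3 and Ifit3b windows shared a run of 169 bases at an offset of 32 bases. Their transcripts were identical at 98.0% of 1697 aligned bases, and the counting could split reads between them, so both genes' values are uncertain.

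Of the 35 members, 27 matched a RefSeq promoter window of 300 bases (250 before and 50 after the start). At least 1 match to this element was in 15 of these 27 (55.6%), against 3.99% of all 27025 genes with a window. The element of interferon gamma signalling, searched as TTCNNNGAA on both strands, was in 5 of 27 (18.5%) against 9.55% of all genes. A match is a run of letters and was not shown to be a bound site. All members lie on autosomes, with several in neighbouring groups: Ifit1, Ifit2, Ifit3 and Ifit3b on chromosome 19, Oas1a, Oas2 and Oas3 on chromosome 5, Oasl1 beside Oasl2 in another part of chromosome 5, and Rsad2 beside Cmpk2 on chromosome 12.

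The 35 members together held 102009 UMIs, which was 1112 CPM of all kept cells in Tdg_WT and 1108 CPM in Tdg_KO. Counts come from 3′ ends and are 1 per captured molecule, so they were not divided by gene length. A pair of genes made up much of the sum: Bst2, which tethers budding virus to the cell surface, held 15.1% and Ifi203, of the HIN-200 family of nucleic acid binding proteins, 14.2%. The rarest member was Ifi44, with 105 UMIs over both libraries. Class levels are therefore also given without Bst2 and Ifi203.

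Without that pair the members were highest in monocyte-like cells, the Ly6c2-bearing precursors of tissue phagocytes, at 1825 CPM (1754 to 1899, 133 cells) in Tdg_WT and 1953 CPM (1873 to 2035, 100 cells) in Tdg_KO. Neutrophil-like cells followed at 1375 CPM (1319 to 1433, 687 cells) and 1274 CPM (1198 to 1353, 241 cells). Treg-like cells, which carry Foxp3 and dampen other T cells, stood at 1017 and 967 CPM. The intervals of these 3 classes did not overlap in either library. Among the lymphoid classes below them, CD4 T-like cells were at 712 and 703 CPM, B-like cells at 624 and 585, NK-like cells at 595 and 645 and CD8 T-like cells at 589 and 610.0, and the intervals of B-like, NK-like and CD8 T-like cells overlapped with a neighbour's. Macrophage-like cells were low, at 461 CPM (419.6 to 506) and 554 CPM (510.1 to 601), although monocytes give rise to macrophages.

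**Figure D1:**
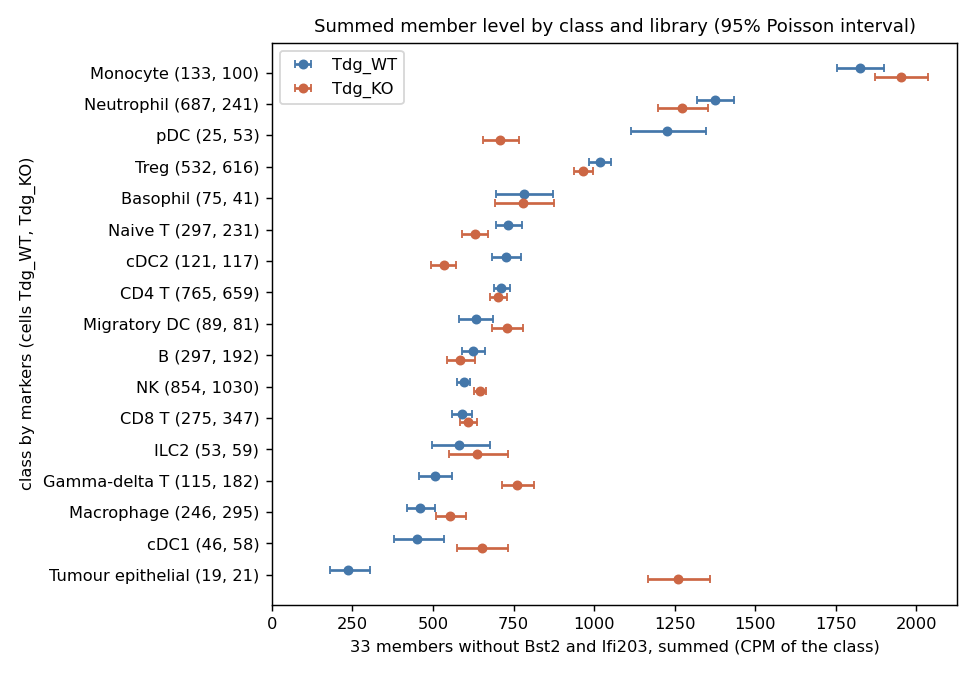
Summed CPM of the 33 members other than Bst2 and Ifi203 in each marker-named class, with cells per library in brackets; points are the libraries and bars the 95% Poisson interval. Monocyte-like cells stand highest in both libraries (1825 and 1953 CPM), and the lone keratin-led class differs most between them (236 and 1260 CPM).

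Plasmacytoid dendritic-like (pDC-like) cells had the highest sum with every member counted, 4237 CPM (25 cells) in Tdg_WT and 3381 CPM (53 cells) in Tdg_KO. Bst2, which also marks this cell type, was 67.7% and 75.8% of it, at 2868 and 2562 CPM. Without Bst2 and Ifi203 the class was at 1227 and 709 CPM, and 1 Tdg_WT barcode held 14.7% of its member UMIs. The Tdg_WT level lay between those of neutrophil-like and Treg-like cells. Genes of 2 lymphocyte subsets were in 61.5% of the pDC-like barcodes of both libraries together. Leaving out the highest barcode of each library brought the pDC-like levels to 800.2 and 697 CPM. The same step left monocyte-like cells at 1805 and 1854, neutrophil-like cells at 1180 and 1103 and Treg-like cells at 968 and 914 CPM.

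Member by member, monocyte-like cells were the class with the highest CPM for 14 of 35 members in Tdg_WT and 15 in Tdg_KO, among 16 immune classes. pDC-like cells led for 8 and 5, and neutrophil-like cells for 6 and 4. Once the highest barcode of each class was left out, monocyte-like cells led for 16 members in each library, pDC-like cells for 5 and neutrophil-like cells for 4. The 5 that pDC-like cells then led were the same in both libraries: Bst2, Stat2, Ifi44, Trim30a and Ifi47.

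**Figure D2:**
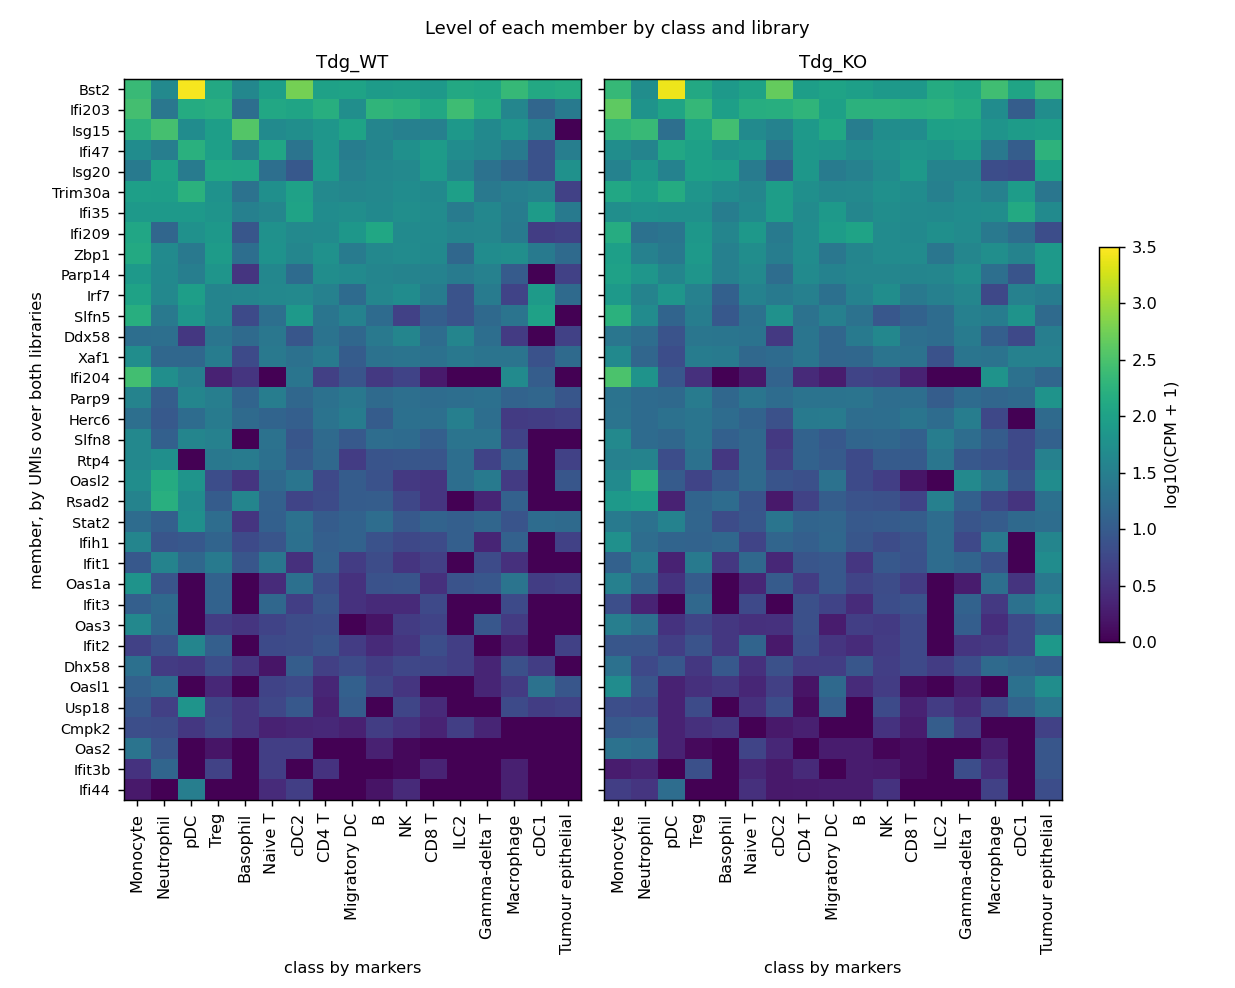
Level of each of the 35 members as log10(CPM + 1) in each marker-named class, with Tdg_WT left and Tdg_KO right; members are ordered by UMIs over both libraries. Bst2 in pDC-like cells is the brightest square in both, and the monocyte column is bright for Ifi203, Ifi204 and Slfn5 in both.

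Among the nucleic acid sensors and HIN-200 genes the monocyte-like cells stood out. Ifi204, a HIN-200 gene of myeloid cells, was at 274 CPM in monocyte-like cells of Tdg_WT and 318 in Tdg_KO, and the next classes were at 51.9 and 62.4 CPM. After every cell was thinned to 1000 UMIs, 22.7% and 22.2% of monocyte-like cells had an Ifi204 UMI, while no UMI of it was counted in γδ T-like cells of either library, which allows up to 4 and 2.49 CPM (3 UMIs of the class total). Ifi203 was at 282 and 427 CPM in monocyte-like cells. Ifi209, its relative, was highest in B-like cells of Tdg_WT (119.7 CPM, with 117 in monocyte-like cells) and in monocyte-like cells of Tdg_KO (145, with 105 in B-like cells). These neighbouring chromosome 1 genes resemble each other, so their counts are less certain.

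Ddx58, which encodes the RNA sensor RIG-I, did not follow the others. It was at 38.0 and 40.8 CPM in NK-like cells and 38.3 CPM in the 53 ILC2-like cells of Tdg_WT, against 22.6 and 24.9 CPM over all kept cells. Zbp1, a sensor of Z-form nucleic acid, was highest in monocyte-like (133 and 92.8 CPM) and next in Treg-like cells (83.6 and 74.8). Ifih1, the RNA sensor MDA5, was at 38.2 and 56.7 CPM in monocyte-like cells, and Dhx58, its helper LGP2, at 18.7 and 18.9.

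The effectors had their highest levels in different classes. Isg15, a ubiquitin-like protein that is joined to other proteins, was at 365 and 271 CPM in basophil-like cells (75 and 41 cells), 293 and 229.7 in neutrophil-like cells and 177 and 195 in monocyte-like cells. A single barcode gave 30.3% of the basophil-like Isg15 UMIs in Tdg_WT and 24.0% in Tdg_KO. Thinned to 1000 UMIs, 15.3% and 13.1% of neutrophil-like cells had an Isg15 UMI, 8.63% and 8.26% of Treg-like and 2.84% and 3.02% of NK-like cells. No class here is known to lack the gene. As a gauge of free RNA, S100a8, an abundant neutrophil transcript (22570 and 14872 CPM in neutrophil-like cells), had a UMI in 1.30% and 0.682% of thinned NK-like cells, and S100a9 in 1.30% and 1.46%. The values were higher in Tdg_WT in B-like cells (S100a8, 3.39%) and naive T-like cells (S100a9, 3.56%). In NK-like cells the Tdg_WT share of Isg15 lay above this gauge in the same class and below its highest values. The gauge is not scaled to abundance, and Isg15 was far lower than S100a8 in neutrophil-like cells (293 and 229.7 against 22570 and 14872 CPM). The part of free RNA in the Isg15 share was not tested.

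Rsad2, which encodes viperin, an enzyme that makes a chain-terminating nucleotide, had its highest level in neutrophil-like cells (161 and 91.9 CPM), as did Oasl2, an OAS-like gene (142 and 166 CPM). For Rsad2, 48.1% and 50% of these UMIs were in 1 barcode of each library, and without the top barcode of each class its highest level in Tdg_KO was in monocyte-like cells. Rtp4, an interferon-induced chaperone gene, was highest in neutrophil-like cells, at 53.7 and 36.3 CPM. The oligoadenylate synthetases make the second messenger of RNase L. Oas1a, Oas2 and Oas3 were highest in monocyte-like cells, at 61.5, 21.0 and 42.0 CPM in Tdg_WT and 32.7, 19.8 and 30.1 in Tdg_KO. Isg20, an RNA exonuclease gene, was highest in Treg-like cells, at 119 and 95.8 CPM.

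The Ifit genes, whose proteins bind viral RNA, were low in most cells. Ifit1 was at 35.6 and 26.6 CPM in neutrophil-like, 26.0 and 26.2 in Treg-like and 22.8 and 14.0 in naive T-like cells. In neutrophil-like cells 81.4% of its UMIs in Tdg_WT were in 1 barcode. Ifit3 and Ifit2 were at 11.5 and 10.6 CPM in Treg-like cells of Tdg_WT and at 14.1 and 6.94 in Tdg_KO. Ifit3b had 165 UMIs in all.

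Among the regulators, Usp18, which strips Isg15 from proteins and damps the receptor, led in pDC-like cells of Tdg_WT at 62.9 CPM, but 87.0% of those UMIs were in 1 barcode. All 18 Rsad2 UMIs of that class and library were in 1 barcode as well. Herc6, the mouse ligase that attaches Isg15, was spread, at 18.6 and 19.7 CPM over all kept cells. Stat2, the transcription factor of the pathway, was highest in pDC-like cells, at 54.7 and 34.2 CPM. Oasl1 was at 3.86 and 5.51 CPM over all kept cells, Parp9 at 19.9 in both libraries, Slfn8 at 18.4 and 14.9, Cmpk2, a nucleotide kinase gene, at 2.70 and 1.84 and Ifi44 at 0.959 and 1.28.

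The remaining members with many UMIs were spread over most classes. Trim30a, which restrains signalling from Toll-like receptors, was at 57.3 and 61.2 CPM of all kept cells, and Ifi35 at 56.9 and 56.2. Ifi47, a GTPase gene that interferon gamma also induces, was at 61.2 and 64.2. Parp14, an ADP-ribosyltransferase gene, stood at 41.6 and 45.8 CPM, and Xaf1, linked to cell death, at 24.2 and 20.8. Slfn5, a Schlafen gene, differed widely between classes, from 3.71 and 7.82 CPM in NK-like cells to 156 and 171 in monocyte-like cells. Irf7, the transcription factor that amplifies interferon production, was at 102 and 77.3 CPM in monocyte-like and 90.2 and 68.4 in pDC-like cells, and at 4.08 and 4.73 in macrophage-like cells.

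Whether the response sits in few barcodes was read by splitting the list. Members were numbered in list order, cells were thinned to 1000 UMIs, barcodes were ranked by the 18 odd-numbered members, and the share of the 17 even-numbered members' UMIs in the top 5% of barcodes was taken. Equal spread gives 5%. Neutrophil-like cells had the highest share in both libraries, 26.6% (21.2 to 32.5, 67 of 252 UMIs) in Tdg_WT and 28.6% (20.4 to 37.9, 32 of 112) in Tdg_KO. Without the single highest barcode these shares were 16.6% in Tdg_WT and 24.0% in Tdg_KO. Thinning kept 498 of 687 and 168 of 241 neutrophil-like cells.

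Treg-like cells had 17.4% (12.9 to 22.6) and 19.5% (15.1 to 24.4), CD4 T-like cells 16.8% (12.6 to 21.8) and 15% (10.5 to 20.5), and naive T-like cells 21.7% (14.6 to 30.4) and 17.3% (9.57 to 27.8). NK-like cells had 14.2% (9.82 to 19.5) and 10.8% (7.27 to 15.4). For these classes both intervals lay above 5%. CD8 T-like cells were at 5% (1.38 to 12.3) in Tdg_WT and 18.9% (12.3 to 26.9) in Tdg_KO, and the difference was not tested. Monocyte-like cells, which had the highest level, were at 8.13% (3.97 to 14.4) in Tdg_WT, an interval that holds 5%, and had too few deep cells in Tdg_KO (99) for a value. B-like cells were at 7.41% (2.06 to 17.9) in Tdg_WT and 17.6% (6.76 to 34.5, 6 of 34 UMIs) in Tdg_KO, and γδ T-like cells at 3.57% (0.0904 to 18.3) and 17.2% (8.90 to 28.7, 11 of 64 UMIs). In both, the Tdg_WT interval held 5% and the Tdg_KO interval lay above it. The shares depended on depth: thinned to 500 UMIs, Tdg_WT was at 10.2% (3.40 to 22.2) in naive T-like and 10.3% (5.41 to 17.2) in Treg-like cells, and CD8 T-like cells were at 8.11% and 11.9%.

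**Figure D3:**
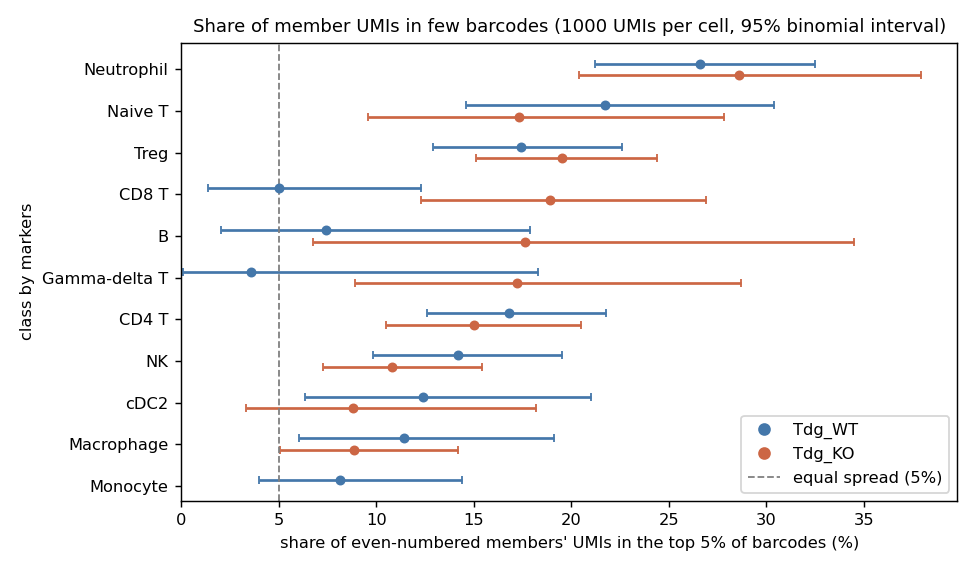
Share of the even-numbered members' UMIs (%) held by the 5% of barcodes ranked highest by the odd-numbered members, by class and library; bars are 95% binomial intervals and the dashed line is equal spread. Neutrophil-like cells lie highest (26.6% and 28.6%), and the Tdg_WT values of γδ T-like and CD8 T-like cells lie at or below the line.

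With all named classes pooled, odd- and even-numbered members rose together over cells. The pooling mixes differences between classes with those within a class, and ratios within a class follow further below. Over the named classes, cells with no odd-numbered member had 0.306 UMIs of even-numbered members per cell in Tdg_WT and 0.326 in Tdg_KO. Cells with 3 odd-numbered members had 0.744 and 0.722. Cells with at least 5 had 4.88 (4.05 to 5.83, 25 cells) and 5 (4.05 to 6.11, 19 cells). The step from 3 to 5 members was thus steeper than that from 0 to 3 in both libraries, and the libraries' intervals overlapped at every step.

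**Figure D4:**
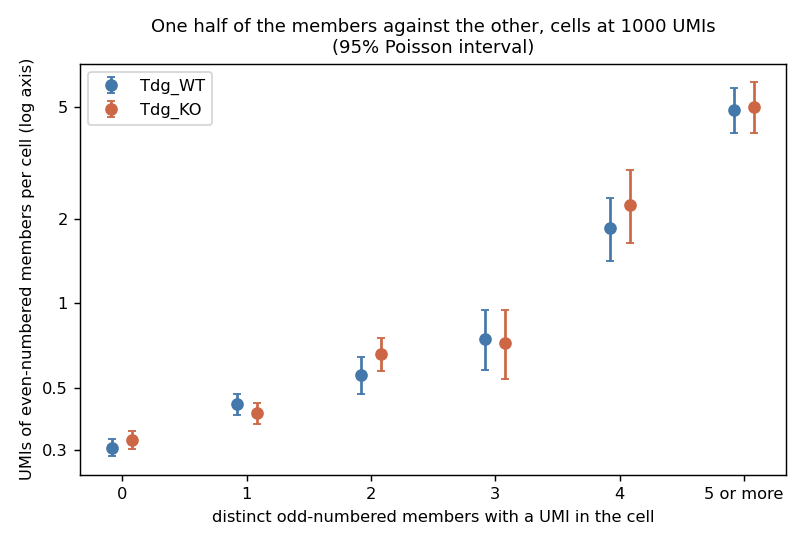
UMIs of even-numbered members per cell (log axis) against the number of distinct odd-numbered members with a UMI, for cells of named classes thinned to 1000 UMIs; points are libraries and bars 95% Poisson intervals. Values stay between 0.306 and 0.744 up to 3 members and reach 4.88 and 5 at 5 or more.

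Barcodes with at least 3 odd-numbered members were 149 of 4359 (3.42%, 2.90 to 4) in Tdg_WT and 112 of 4182 (2.68%, 2.21 to 3.21) in Tdg_KO. The limit is a range and not a cell type: 323 and 342 barcodes had 2 such members, just outside it, and 90 and 72 had 3, just inside. The share was 12.1% (7.09 to 18.9) and 14.1% (7.95 to 22.6) in monocyte-like cells, 4.71% and 4.38% in Treg-like, 4.62% and 4.17% in neutrophil-like, 2.96% and 2.04% in NK-like and 0.858% and 1.07% in macrophage-like cells. In every one of these classes the libraries' intervals overlapped. Median depth before thinning was 4853 UMIs in the Tdg_WT barcodes against 5186 in the others, and 6280 against 5766 in Tdg_KO. A second lineage was present in 2.01% of them against 4.28% in Tdg_WT and in 4.46% against 5.82% in Tdg_KO.

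Within their class and library these barcodes held 3.97 times (Tdg_WT, 3.5 to 4.49) and 4.31 times (Tdg_KO, 3.72 to 4.96) the even-numbered members' UMIs expected from the other barcodes. In monocyte-like cells the ratio was 1.41 and 2.29, where the other barcodes already had 0.888 and 0.812 UMIs per cell. It was 6.45 and 6.95 in neutrophil-like cells and 5.57 and 6.43 in CD4 T-like cells. The 25 and 19 barcodes with at least 5 odd-numbered members came from 9 and 8 classes. Neutrophil-like (6), NK-like (5), CD4 T-like (4) and Treg-like cells (4) gave the most in Tdg_WT, and Treg-like (5), monocyte-like (4) and CD4 T-like cells (3) in Tdg_KO.

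Members differed in how far their UMIs lay in such barcodes. The barcodes chosen by odd-numbered members, 3.06% of the cells of both libraries, held 21 of 30 thinned UMIs of Ifit3 (70.0%) and 45 of 74 of Ifit1 (60.8%), which encode RNA-binding blockers of translation. They held 13 of 36 UMIs of Usp18 (36.1%) and 15 of 49 of Oas3 (30.6%). At the other end were Oas1a with 3 of 68 (4.41%), Ifi47 with 43 of 523 (8.22%) and Bst2 with 104 of 1157 (8.99%).

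Turned round, the barcodes with at least 3 even-numbered members, 1.15% of cells, held 47 of 128 UMIs of Rsad2 (36.7%), 50 of 224 of Slfn5 (22.3%) and 106 of 722 of Isg15 (14.7%). They held 16 of 470 UMIs of Ifi35 (3.40%) and 16 of 472 of Ifi209 (3.39%). Of the members named here, only Ifit3 and Ifit1 had most of their UMIs in the barcodes they were read in. Even-numbered members were read in 3.06% of cells and odd-numbered members in 1.15%, so their shares are not comparable with each other. The lowest share of an odd-numbered member, 3.39% for Ifi209, lay above the 1.15% of cells. For Oas1a, at 4.41% against 3.06%, the intervals of both libraries (0.611 to 16.9 and 0.0904 to 18.3) held the share of cells. All these shares pool the named classes. Among the even-numbered members with a promoter window, the ratio of observed to expected UMIs had a median of 4.54 in the 8 with the element (1.07 in Oas1a to 101 in Ifit3) and 3.40 in the 5 without it (2.77 to 19.1), so the ranges overlapped.

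Single barcodes show the extent. In Tdg_WT 1 neutrophil-like barcode had 332 member UMIs among 4303, from 26 of the 35 members, and held 13.9% of that class's member UMIs. The highest neutrophil-like barcode of Tdg_KO had 152 of 7544 UMIs (13.3% of the class). The highest barcodes of NK-like cells had 29 members in Tdg_WT and 32 in Tdg_KO. By contrast 29.3% and 32.8% of neutrophil-like cells had no member UMI at all, as did 1.5% and 1% of monocyte-like cells, whose median depth was 10195 and 10438 UMIs against 1804 and 2235.

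When the members and pathway genes were allowed among the genes used for clustering, 1 cluster formed of 27 barcodes in Tdg_WT (0.491% of cells) and 18 in Tdg_KO (0.316%). Its 10 leading genes included 7 members, a description since those genes made it: Ifit3, Ifit1, Slfn5, Rsad2, Ifit3b, Isg15 and Cmpk2. In the clustering without them its barcodes had come from 5 named classes in Tdg_WT and 6 in Tdg_KO, with NK-like cells giving 4 and 5 and naive T-like cells 5 and 2. Unnamed clusters gave 12 of the 27 barcodes in Tdg_WT and 5 of the 18 in Tdg_KO. Monocyte-like cells gave 0 in both, but phagocytes were clustered again on their own, so that 0 does not show how they would group.

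Genes outside the list were read in the barcodes with at least 3 odd-numbered members, against the other barcodes of the same class and library. Cxcl10, a chemokine that draws Cxcr3-bearing T cells, had 121 UMIs where 9.66 were expected in Tdg_WT and 78 where 11.0 were expected in Tdg_KO. Of its 77 UMIs in such neutrophil-like barcodes of Tdg_WT, 49 were in 1 barcode. Of its 35 UMIs in such NK-like barcodes of Tdg_KO, 29 were in 1 barcode. Among the 10 genes with the largest ratio were also Slfn1, Ifi27l2a, Mndal, Samhd1, Sp100, Tap1, Acod1 and Clec2d, at 2.95 to 1.93 over both libraries. In all, 18 genes passed both limits (at least 50 UMIs there over both libraries and a ratio over 1.5 in each).

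The genes of the signal itself were less uneven. Irf9 had 12 UMIs where 5.21 were expected and 13 where 4.13 were. Both receptor genes stayed near 1: Ifnar1 had 15 against 15.6 and 12 against 13.7 UMIs, and Ifnar2 18 against 16.2 and 7 against 9.79. Ifng, the gene of interferon gamma, had 14 against 15.9 and 7 against 11.4 UMIs. Among genes known for their response to interferon gamma, Gbp2 had 20 against 5.47 and 19 against 4.13, and Iigp1 14 against 1.78 and 8 against 1.74.

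Type I interferon ligands were almost undetected. Of 18 listed, 13 had 0 UMIs in both libraries, and those other than Ifnb1 had 10 UMIs together. Ifnb1, the gene of interferon beta, had 4 UMIs in 4 barcodes of Tdg_WT and 44 UMIs in 15 barcodes of Tdg_KO. Of the 44, 19 were in 1 barcode and 33 in an unnamed cluster led by Thbs1 and Chil3, where 94.5% of barcodes carried T cell and phagocyte genes. Of the 15 barcodes, 10 had markers of a second lineage. A ligand at 0 in RNA sorted from CD45-bearing cells says nothing of cells outside the sort.

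The comparison of the libraries asked whether the knockout label went with a different interferon response in immune cells. It covered 11 classes, each of which had 100 or more cells per library. Genes needed at least 50 UMIs in a class, summed over both libraries. A low gene can thus pass mainly through the library where it is higher, and the shares over all genes are under the same minimum. Among such members were Ifit3 in NK-like cells (9 and 43 UMIs), Slfn5 in γδ T-like cells (11 and 39) and Xaf1 in naive T-like cells (43 and 20). A member is counted as higher or lower in Tdg_KO past 1.5-fold. Every ratio is Tdg_KO over Tdg_WT. Over all kept cells the summed member level was nearly equal (1112 and 1108 CPM). In 9 of the 11 classes the median log2 ratio of members lay between −0.24 and 0.20.

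**Figure D5:**
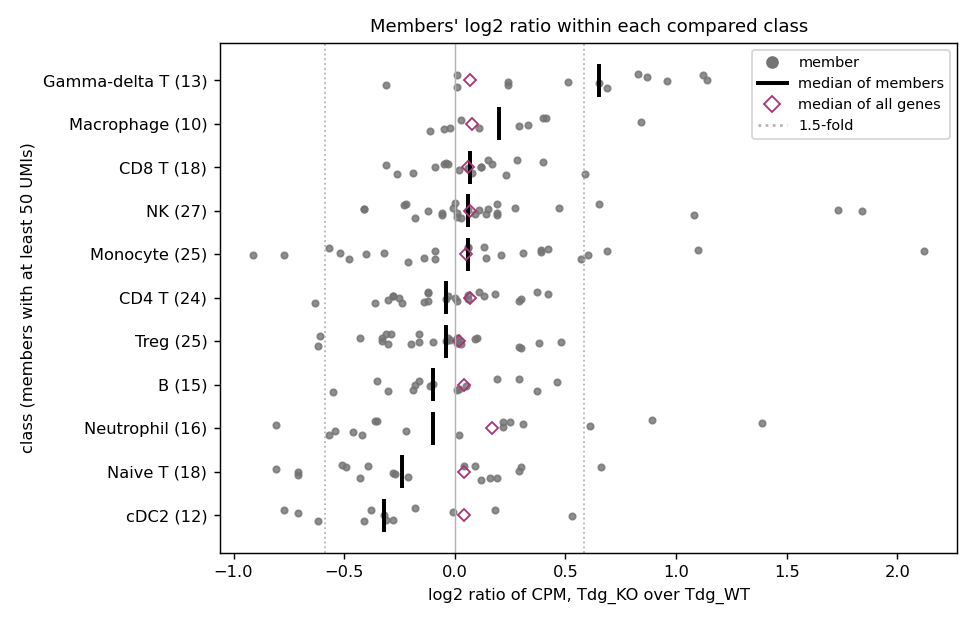
Log2 ratio of CPM (Tdg_KO over Tdg_WT) of each member with at least 50 UMIs in the 11 compared classes, with member counts in brackets; bars are medians of members, diamonds medians of all genes of the class, dotted lines 1.5-fold. Medians run from −0.32 in cDC2-like to 0.65 in γδ T-like cells.

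γδ T-like cells, led by Il17a, had the highest median. Of 13 members 7 were higher and 0 lower, where 8.84% and 2.82% of all 4504 genes were, and the median log2 ratio was 0.65 against 0.07 for all genes. The 7 were Isg15, Ifi47, Slfn5, Trim30a, Parp14, Isg20 and Oasl2. Isg15 was at 45.3 and 98.6 CPM (ratio 2.18, 1.48 to 3.29), Ifi47 at 41.3 and 80.4 (1.95, 1.29 to 3.02), Slfn5 at 14.7 and 32.3 (2.21, 1.11 to 4.78) and Trim30a at 25.3 and 46.4 (1.83, 1.07 to 3.27). Parp14 was at 33.3 and 52.2 CPM (1.57, 0.972 to 2.60). In Tdg_KO 1 barcode held 14.0% of the class's member UMIs. Without the highest barcode of each library the median was 0.45, with 5 of 12 higher, and the summed ratio was 1.23 (1.11 to 1.37) in place of 1.34 (1.21 to 1.48). Without the 5% of barcodes highest in members the median was 0.30, with 3 of 11 higher, and the Isg15 ratio was 1.42, under 1.5-fold. With members among the clustering genes 4 were higher.

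cDC2-like cells, the dendritic cells that prime CD4 T cells, had the lowest median. Of 12 members 3 were lower and 0 higher, where 3.22% and 8.44% of all 5000 genes were, and the median was −0.32 against 0.04. The summed ratio was 0.815 (0.763 to 0.870). Irf7 was at 43.7 and 25.6 CPM (0.586, 0.378 to 0.896), Ifi209 at 43.0 and 26.3 (0.612, 0.396 to 0.934) and Isg15 at 53.4 and 34.8 (0.652, 0.446 to 0.945). Isg15 had a ratio of 1.03 once cells were thinned. The class was 4 clusters that did not move alike: the summed ratio was 0.699 in that led by Cd209a, Clec10a and Ifi205 (68 and 47 cells), 1.10 in that led by Cd209d (25 and 24 cells), 1.26 in that led by Ccl17 (22 and 27 cells) and 0.681 in that led by Dcstamp (6 and 19 cells).

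NK-like cells, innate killers, had 4 of 27 members higher and 0 lower, where 4.06% and 1.57% of 9056 genes were, with a median of 0.06 against 0.07. Ifit1 was at 2.47 and 8.22 CPM (3.33, 1.84 to 6.43), Ifit3 at 1.59 and 5.70 (3.59, 1.73 to 8.37), Slfn5 at 3.71 and 7.82 (2.11, 1.26 to 3.66) and Isg15 at 32.5 and 50.9 (1.57, 1.31 to 1.88). Ifit1 had 14 and 62 UMIs and Ifit3 9 and 43, so both passed the minimum mainly through Tdg_KO. Few cells were behind the Ifit3 value: it had a UMI in 0.820% and 0.971% of NK-like cells, and 39.5% of its 43 UMIs in Tdg_KO were in 1 barcode. Its ratio was 0.640 when barcodes high in members formed a cluster of their own, and 1.51 without the 5% of barcodes highest in members. Ifit1 was at 1.73 with no cell filter and 1.54 at the lower clustering resolution. Isg15, which had a UMI in 13.2% and 16.1% of these cells, was at 1.04 after thinning. The count of 4 higher members was 0 after thinning, 0 with members among the clustering genes and 1 at a minimum of 200 UMIs. Of the NK-like clusters, that led by Gzmc had 35.4 and 82.9 CPM of Isg15, and that led by Gzma 30.5 and 31.8.

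Monocyte-like cells had 4 of 25 members higher and 2 lower, where 12.9% and 4.82% of 5065 genes were, and a median of 0.06 against 0.05. Oasl1, which restrains Irf7 translation, was at 11.2 and 49.0 CPM (4.36, 2.43 to 8.29) from 15 and 57 UMIs, with a UMI in 6.77% and 24.0% of cells. Rsad2 was at 36.0 and 77.3 CPM (2.15, 1.5 to 3.12), Ifi203 at 282 and 427 (1.52, 1.32 to 1.74) and Stat2 at 16.5 and 26.6 (1.62, 0.906 to 2.93). Oas1a went the other way, at 61.5 and 32.7 CPM (0.531, 0.352 to 0.790), as did Parp9 at 35.2 and 20.6 (0.585, 0.342 to 0.977). Markers of a second lineage were in 12.8% and 28.0% of the monocyte-like barcodes, and their part in these differences was not tested.

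Neutrophil-like cells had 3 of 16 members higher and 1 lower, where 20.7% and 6.27% of 4687 genes were, with a median of −0.10 against 0.17. Rsad2 was at 161 and 91.9 CPM (0.572, 0.437 to 0.741). It had 266 and 76 UMIs, and the ratio was 0.555 without the barcode highest in members of each library. Ifi203 was at 23.5 and 61.6 CPM (2.62, 1.69 to 4.08), Slfn5 at 25.4 and 47.1 (1.86, 1.17 to 2.95) and Parp14 at 45.3 and 68.9 (1.52, 1.06 to 2.18). Slfn5 had a ratio of 0.931 with cells weighted equally and Parp14 of 0.593 after thinning. The cluster led by S100a9 and S100a8 (294 and 85 cells) had 609 and 266 CPM of Isg15, and that led by Slc7a11 and Il1a (393 and 156 cells) 218 and 226.

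In macrophage-like cells 1 of 10 members was higher and 0 lower, where 15.4% and 5.60% of 3378 genes were. That member was Ifi35, at 28.6 and 51.1 CPM (1.79, 1.11 to 2.93). The summed ratio was 1.21 (1.10 to 1.34), but 1.06 (0.941 to 1.19) within the Apoe and C1qb cluster (128 and 240 cells) and 1.02 (0.806 to 1.28) within the Arg1 and Spp1 cluster (118 and 55 cells), which was at the lower level, 539 and 548 CPM against 895 and 947.

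Among the other T cells few members passed 1.5-fold. CD8 T-like cells had 1 of 18 higher and 0 lower (4.85% and 2.11% of 7546 genes), Isg15 at 32.7 and 49.3 CPM (1.51, 1.15 to 1.99). CD4 T-like cells had 0 of 24 higher and 1 lower (4.33% and 1.97% of 8066), Ifit1 at 11.4 and 7.36 CPM (0.647, 0.393 to 1.05). Treg-like cells had 0 of 25 higher and 2 lower (3.33% and 2.60% of 8159), Slfn8, another Schlafen gene, at 33.4 and 21.9 CPM (0.657, 0.496 to 0.869) and Ifit2 at 10.6 and 6.94 (0.652, 0.390 to 1.08).

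Naive T-like cells had 1 of 18 members higher and 3 lower (5.12% and 3.41% of 5076 genes), with a median of −0.24. Ifi47 was at 118 and 72.1 CPM (0.609, 0.476 to 0.776), Xaf1 at 24.6 and 14.0 (0.570, 0.317 to 0.990), Ifit1 at 22.8 and 14.0 (0.612, 0.339 to 1.07) and Isg20 at 17.7 and 28.0 (1.58, 0.964 to 2.61). Without the 5% of barcodes highest in members, the Ifit1 ratio was 1.03 in naive T-like and 1.01 in CD4 T-like cells. B-like cells had 0 of 15 members higher and 0 lower (4.95% and 3.49% of 5701), a median of −0.10 and a second lineage in 22.9% and 25.5% of barcodes.

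Across the 11 classes Ifi203 had a ratio above 1 in 10 of 11 classes, with 7 intervals above 1 and 0 below. Isg15 had 4 intervals above 1 and 2 below, Trim30a 3 and 0, Slfn5 3 and 0 and Irf7 0 and 2. The share of all genes with such counts is not given here, so whether these counts are unusual cannot be read from them. The classes come from the same 2 libraries and are not repeats, and a gene with many UMIs has narrow intervals. Ifit3b, Ifi44 and Cmpk2 reached 50 UMIs in no class. Over all kept cells the lowest ratios were 0.680 for Cmpk2, 0.733 for Rtp4, 0.740 for Oasl2, 0.744 for Rsad2 and 0.749 for Oas1a. Oas1a was highest in monocyte-like cells of both libraries. Cmpk2 was highest in monocyte-like cells of Tdg_WT and, in Tdg_KO, in ILC2-like (9.75 CPM) and neutrophil-like cells (9.67 CPM). Neutrophil-like cells, where Rtp4, Oasl2 and Rsad2 were highest (Rsad2 of Tdg_KO through 1 barcode), made up 12.5% and 4.23% of kept cells, and the part of that difference was not tested. Of the pathway list of interferon gamma GTPases and chemokines, 4 of 10 were higher and 0 lower in γδ T-like cells (8.84% and 2.82% of all genes), 4 of 7 and 0 in neutrophil-like cells (20.7% and 6.27%) and 4 of 8 and 1 in macrophage-like cells (15.4% and 5.60%). In B-like cells 1 of 10 was higher and 3 lower (4.95% and 3.49%). In monocyte-like cells 2 of 10 were higher and 2 lower (12.9% and 4.82%), and in cDC2-like cells 1 of 5 was higher and 2 lower (8.44% and 3.22%). In each of the remaining classes, with 11 to 16 measured, 0 or 1 was higher and 0 or 1 lower. There 3.33% to 5.12% of all genes were higher and 1.57% to 3.41% lower.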

How the data were processed

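The authors deposited filtered matrices of raw UMI counts per gene and barcode, made with Cell Ranger 6.0.1 per the file headers. The genome was mm10, per the submitters' processing notes, which also name Seurat. Alignment settings and annotation: not given in the sources used here. Together 2 libraries held 39819010 and 52586319 UMIs over 5604 and 5896 barcodes.

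From these counts, barcodes were kept that had 200 or more genes and no more than 10% mitochondrial UMIs (98.2% and 96.6%). Cells were clustered with scanpy 1.11.5 (counts per 10000, 2000 variable genes, 30 principal components, 15 neighbours, Leiden resolution 1). Of 34 clusters, those with at least 3 detected markers and 1 of their own among the 10 leading genes were named. Clusters with T cell and phagocyte genes in at least 50% of barcodes, or with 2 lymphocyte subsets in at least 25%, stayed unnamed. The pDC-like cluster was an exception: 61.5% of its barcodes carried genes of 2 lymphocyte subsets, and it kept its name. Phagocytes were clustered again on their own. These limits were chosen after the clusters were seen. Names are rebuilt from markers and written "-like". No doublet caller was run and no doublet removed, since barcodes of a second lineage (at least 3 of its markers) were counted instead.

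CPM are a gene's summed UMIs in a class of 1 library, over all UMIs of that class there. Intervals are exact (Poisson for levels, Clopper-Pearson for shares, conditional binomial for ratios of levels). Thinned values are from cells of at least 1000 UMIs drawn down to that number. For values in single barcodes the library's full counts were used. The script was checked on simulated counts. Promoters are from RefSeq.

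The members, the pathway lists and the markers were chosen with earlier results of these data known. Values in full were given for the 14 members with most UMIs, for up to 5 members each way per class ranked by the interval bound nearest 1, for pathway genes with at least 50 UMIs and for the 10 other genes with the largest ratio. Other members and pathway genes were named after their values were seen. Some genes that these rules select are not reported here.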

Additional observations from a re-analysis of the deposited data

Results flagged for a closer look

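The summed member ratio (Tdg_KO over Tdg_WT) was 1.34 in γδ T-like cells and 0.815 in cDC2-like cells. The classes moved in opposite directions with 1 library a group, and the difference was not tested.

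In the keratin-led cluster (19 and 21 barcodes), 1 barcode of Tdg_KO held 536 of the 831 member UMIs. That barcode had 195160 UMIs in all and a UMI of each of the 35 members. Without the highest barcode of each library the cluster stood at 359.6 CPM in Tdg_WT and 874 CPM in Tdg_KO.

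In Tdg_KO 33 UMIs of Ifnb1 were counted in the unnamed cluster led by Thbs1 and Chil3 (138 barcodes), 19 of them in 1 barcode. The same cluster had 1 UMI in Tdg_WT (81 barcodes).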

How the results depend on the processing

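The median log2 ratio of members kept its value within the spread over members in 109 combinations of class and alternative and moved in 1, a wide allowance under which the γδ T-like median of 0.65 against 0.30 counts as kept. The counts of members past 1.5-fold were less steady: those higher differed by over 1.5 times in 32 of 110 combinations and those lower in 35 of 110. Higher members numbered 3 to 9 in γδ T-like cells (7 as reported), 0 to 4 in NK-like (4), 1 to 6 in monocyte-like (4), 0 to 9 in neutrophil-like (3), 1 to 5 in macrophage-like (1), 0 to 3 in CD8 T-like (1), 0 to 2 in naive T-like (1) and B-like (0) and 0 to 1 in CD4 T-like, Treg-like and cDC2-like cells (0 each). Lower members numbered 2 to 8 in cDC2-like (3), 1 to 5 in naive T-like (3), 0 to 4 in Treg-like (2), 0 to 3 in monocyte-like (2) and CD4 T-like (1), 1 to 4 in neutrophil-like (1) and 0 to 1 in B-like cells (0), and were 0 throughout in the other 4 classes. The median that moved was in neutrophil-like cells after thinning, at −0.56 over 5 members, where the median of all genes also moved by −0.12. Leaving out barcodes of a second lineage moved that all-gene median by −0.11, and a minimum of 200 UMIs by −0.13. Among the ratios of named members, 234 moved little, 10 moved without a change of direction and 8 changed direction. The moves not given in the report were, after thinning, Isg20 in naive T-like cells at 11.7 (2.62 under the stricter cell filter), Ifit1 in CD4 T-like cells at 0.211 and Ifi209 in cDC2-like cells at 0.345, and Isg15 in γδ T-like cells at 1.42 without the 5% of barcodes highest in members. With members allowed in the clustering, Ifit3 in NK-like cells was at 0.640 and Ifit1 at 1.21 in CD4 T-like and 1.16 in naive T-like cells. Without the 5% of barcodes highest in members, Ifit1 was at 1.01 and 1.03 there. Slfn5 in neutrophil-like cells was at 0.931 with cells weighted equally. After thinning, Parp14 in neutrophil-like cells was at 0.593 and Isg15 in cDC2-like cells at 1.03. The cause of these changes was not tested.

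The top-barcode share moved most with depth. Thinned to 500 UMIs it was 11.9% in CD8 T-like cells of Tdg_KO and, in Tdg_WT, 10.3% in Treg-like, 10.2% in naive T-like, 4.55% in macrophage-like, 2.33% in cDC2-like and 0% (of 18 UMIs) in γδ T-like cells. Thinned to 2000 UMIs, CD4 T-like cells of Tdg_KO were at 20.6%. Ranked by even-numbered members, Tdg_KO had 12.5% in Treg-like and 16.0% in macrophage-like cells. Without Bst2 and Ifi203 it was 19.8% in macrophage-like cells of Tdg_KO and 0% (of 14 UMIs) in γδ T-like cells of Tdg_WT. Neutrophil-like cells of Tdg_WT were at 16.6% without the highest barcode.

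The ratio in barcodes with several members was 2.40 and 2.52 (Tdg_WT, Tdg_KO) at 2 or more members, 6.86 and 7.73 at 4 or more, 6.88 and 6.18 with odd- and even-numbered members exchanged, and 5.29 and 5.59 without Bst2 and Ifi203. With that pair counted, Treg-like cells of Tdg_WT took place 4 in the order of levels among compared classes and not 3. The alternatives without Bst2 and Ifi203, without the single highest barcode, and those on the order and on several-member barcodes were chosen after seeing the data. Monocyte-like cells had a value under 4 alternatives and cDC2-like cells under 7, since elsewhere a class fell under 100 cells or held too few members. No paired analysis was possible because each group is 1 library.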
